A study of Mus musculus with 35 samples.

Results

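The course of normal repair was followed between day 14 and day 19 after full-thickness excision of dorsal skin in mice. The comparison used 6 of the 35 samples of the study: wild-type (WT) wounds at day 19 (D19, replicates a, b and c) against WT wounds at day 14 (D14, replicates e, f and g), which were chosen because they share the sequencing character of the D19 libraries. The 4 other D14 WT libraries, replicates a to d, served as a check and entered no call. WT denotes Cre-negative Col5a1 fl/fl littermates on a C57BL/6 background, young adults of both sexes. They carried the floxed alleles without the fibroblast driver Col1a2CreERT and received the same tamoxifen as the conditional knockout animals of the study, so tamoxifen was shared by every wound described here. Each library was made from a punch biopsy of the middle of 1 wound or scar. A biopsy holds every cell type present, and in such bulk samples fewer cells of a type and less RNA per cell cannot be told apart.

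Skin wounds close by overlapping steps. Keratinocytes at the margin switch to an activated state marked by stress keratins, migrate over the bed and then rebuild a layered, lipid-sealed barrier. Beneath them granulation tissue rich in macrophages, new vessels and contractile myofibroblasts is replaced by a collagenous scar, and large wounds in mice can form new hair follicles and new fat cells in their centre.

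Counts over the gene rows used were 26307528 to 35532355 in D14 replicates e to g, 18074680 to 21280989 at D19 and 15043531 to 18147531 in D14 replicates a to d. The most GC-rich decile of genes stood 0.51 to 0.57 log2 units above the most GC-poor decile in D14 e to g and 0.86 to 0.98 at D19, but 1.81 to 2.43 below it in D14 a to d, so day and library set cannot be told apart in any comparison with a to d. Even within the chosen libraries the median log2 fold change ran from -0.15 in the most GC-poor decile to 0.29 in the most GC-rich. Xist, the RNA that silences one X chromosome in females, was at 0.0476, 0.0453 and 0.0380 RPKM (reads scaled to transcript length and library size) in D14 e, f and g and at 0.0438, 29.6 and 33.0 RPKM in D19 a, b and c. All 3 D14 wounds and D19 replicate a thus had a male pattern and D19 b and c a female one, and with sex as a covariate edgeR called 0 genes in either direction, with 1876 genes at least 2-fold higher and 1374 at least 2-fold lower at an unadjusted p under 0.05. In that fit the day effect rests on D19 a, the only D19 wound with a male pattern, against D14 e to g. Of the calls below, 2132 higher and 1521 lower genes kept their sign in it. Where groups do not overlap, D19 a lies on the called side by definition, so the kept signs are no further support. The parts of day and sex cannot be fully told apart. Skin markers were present in every library: the keratinocyte keratin Krt14 was at 5537 to 21006 RPKM in D14 e to g and 1786 to 5019.9 at D19, and Col1a1, the main chain of type I collagen, at 518 to 604 and 1024 to 10195.

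Of 15059 genes tested, 2133 were higher at D19 (14.2%) and 1521 lower (10.1%), at an adjusted p under 0.05 and a change of at least 2-fold. In 3613 of these the groups did not overlap, a separation that the thresholds largely bring with them, so it is no further support. The median log2 fold change over all genes was 0.07. Higher genes made up 58.4% of the calls, and 83.3% (3646 higher, 733 lower) where libraries were scaled by their totals alone, which moved the median of all genes to 0.48. Single libraries moved the counts. Without D19 replicate b, whose Col1a1 and Postn levels lay below those of a and c, 3217 genes were higher and 1900 lower. Without D14 e the higher count fell to 570, without D14 f to 730, without D14 g to 1016 and without D19 a to 757, while the lower count was 919, 1076, 1236 and 976. Values of D14 a to d are set beside those of D19 below as a description, since the 2 comparisons share the D19 wounds. In a to d all 4 values lay below all D19 values for 32.1% of the genes called higher and 22.2% of all genes tested, and above them for 43.5% of the genes called lower and 20.5% of all genes tested.

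**Figure D1:**
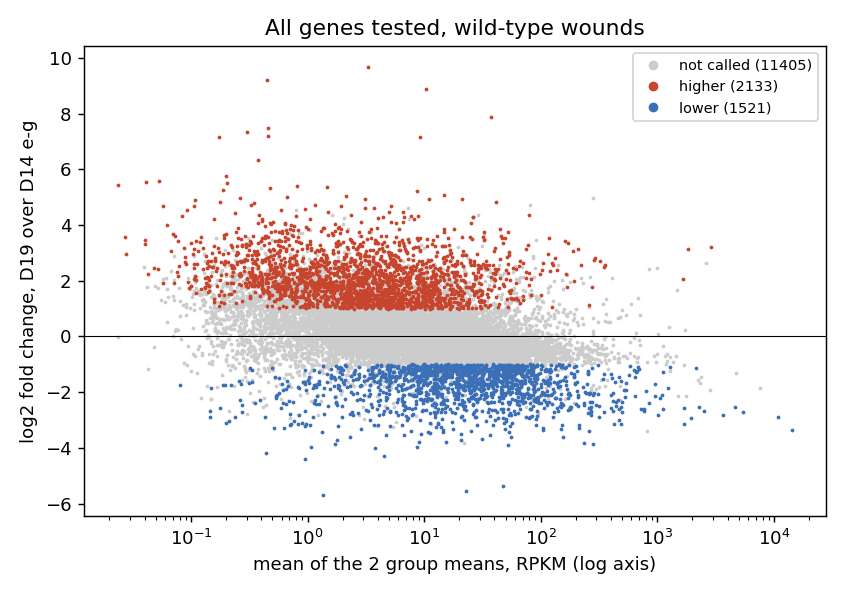
Log2 fold change of D19 over D14 e to g (vertical axis) against the mean RPKM of the 2 group means (horizontal log axis) for every gene tested. Each point is a gene, with 2133 called higher in red, 1521 called lower in blue and the rest in grey.

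The leading genes were those with the smallest p-values among called genes whose groups did not overlap. Their separation and narrow groups therefore follow from the choice and are no further support. Slc22a17, a lipocalin receptor, was at 2.94, 3.10 and 2.70 RPKM at D14 and 13.9, 15.2 and 18.1 RPKM at D19. Gabbr1, a subunit of the GABA-B receptor, was at 1.11, 1.43 and 1.38 and then 8.34, 9.63 and 11.9 RPKM. The log2 fold changes of Slc22a17 and Gabbr1 were 2.43 ± 0.17 and 2.93 ± 0.21 (SE, adjusted p = 0.0033 for each). Slit2, a guidance ligand for Robo receptors, was at 0.152, 0.240 and 0.135 and then 2.39, 2.24 and 3.18 RPKM, and the transporter Abca8a at 0.0720, 0.0867 and 0.0926 and then 3.12, 1.54 and 2.10. In D14 a to d Slc22a17 stood at 2.09 to 7.74, Gabbr1 at 2.28 to 4.75, Slit2 at 0.832 to 3.39 and Abca8a at 0 to 5.73 RPKM. The first pair lay below D19 and the second overlapped it. With a GC content correction chosen after seeing the data, the log2 fold change of Slc22a17 against a to d turned to -0.20.

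The 8 leading lower genes, chosen in the same way, were Aadacl2, Mpzl3, Tgm5, Lypd5, Rnf11, Sox7, Sdr9c7 and Atp6v0a4. Aadacl2 (chr3:59810665-59829342, NCBI37, plus strand), an arylacetamide deacetylase-like gene, had the smallest p-value of all genes, at 39.2, 37.4 and 38.3 RPKM at D14 and 3.01, 2.89 and 2.88 RPKM at D19. Its log2 fold change was -3.71 ± 0.13 (adjusted p = 0.00144), and D14 a to d lay higher still at 68.8 to 80.9 RPKM. Tgm5, a transglutaminase that cross-links the cornified envelope, was at 56.9, 64.9 and 71.6 and then 8.27, 9.30 and 9.37 RPKM. Sdr9c7, a dehydrogenase of the epidermal lipid barrier, was at 89.6, 95.1 and 110.2 and then 12.3, 15.7 and 13.7 RPKM. In D14 a to d Tgm5 and Sdr9c7 stood at 28.6 to 53.7 and 55.2 to 77.2 RPKM, also above D19. The D19 values entered the choice of these genes, so the a to d values are a description and no further support. Rnf11, a RING finger protein, was at 127 to 137 and then 30.1 to 31.3 RPKM, and Sox7, a transcription factor, at 37.8 to 48.7 and then 7.79 to 8.61, with a to d at 141 to 195 and 11.5 to 12.7. Lypd5 was at 415 to 531 and then 37.7 to 51.0 RPKM, but a to d at 15.3 to 36.7 lay wholly below D19.

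Genes of the suprabasal and cornified layers were lower in part at D19. Of 35 tested, 18 were called lower (10.1% of all genes were) and 0 higher, all 35 had a negative log2 fold change, and their median was -2.20. Dsc1, a desmocollin of the upper epidermis, was at 499, 493 and 596 RPKM in D14 e, f and g and 50.4, 28.7 and 30.6 RPKM at D19. Krt10, the keratin of differentiating cells, was at 33119.5, 32309.8 and 12454 and then 3613, 2354 and 1549.6 RPKM, and its partner Krt1 at 23262, 22683 and 10741 and then 2751, 2543 and 2404 RPKM. No D19 value reached a D14 value in these 3 genes, and the log2 fold changes were -3.86 ± 0.32, -3.37 ± 0.66 and -2.88 ± 0.52. Dsg1a, a desmoglein, and Cdsn, the corneodesmosome protein, changed by -3.31 and -2.98; a to d at 272 to 431 RPKM lay above D19 (15.4 to 35.5) for Dsg1a, but for Cdsn a to d at 50.8 to 134 overlapped D19 (60.9 to 149.6) and the sign turned to 0.20 against them. Against D14 a to d the same 35 genes had a median of -1.13, and in 12 of the 18 called genes a to d lay wholly above D19, beside 43.5% of all genes called lower. Krt10 at 3033 to 6217 RPKM in a to d overlapped D19, whereas Dsc1 at 656 to 938 did not.

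The enzymes and transporters that build the lipid seal of the epidermis were lower almost throughout. Of 19 tested, 17 were called lower (89.5%, beside 10.1% of all genes), 0 higher, and the median was -2.47. Abca12, which loads lipids into lamellar granules, was at 79.9, 74.2 and 55.6 RPKM at D14 and 10.1, 7.45 and 5.59 RPKM at D19 (-3.18 ± 0.30, adjusted p = 0.00352). Lipn, a lipase of the granular layer, was at 37.7, 36.5 and 18.5 and then 4.62, 3.77 and 2.75 RPKM, and Alox12b, a lipoxygenase of ceramide processing, at 119, 132 and 83.0 and then 13.3, 23.4 and 12.6. Groups stood apart for each. In D14 a to d Abca12 was at 52.6 to 64.8 and Lipn at 23.8 to 70.0 RPKM, above D19, while Alox12b at 11.7 to 22.8 overlapped it. For 10 of the 17 called genes a to d lay wholly above D19, beside the same 43.5%, and the median against a to d was -1.20.

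The stress keratins and alarm genes of activated keratinocytes were also lower. Of 14 tested, 7 were called lower (50.0%, beside 10.1% of all genes), 0 higher, with all 14 negative and a median of -2.18. Stfa3, a stefin of wound-edge and myeloid cells, was at 8414, 6166 and 4513 RPKM and then 784, 679 and 1255 RPKM, and D14 a to d stood at 19740.4 to 29362. Il20rb, a receptor chain for keratinocyte-activating cytokines, was at 144, 108 and 88.1 and then 23.6, 22.6 and 10.3 RPKM. The envelope precursor Sprr1b had a log2 fold change of -2.81, at 806 to 3308 and then 85.1 to 422 RPKM. In a to d Il20rb at 13.2 to 47.5 and Sprr1b at 311 to 391 overlapped D19, and a to d lay wholly above D19 for 3 of the 7 called genes. Krt6a, the wound keratin, was at 1314, 1199 and 4788 RPKM at D14 and 281, 815 and 568 RPKM at D19. Every D19 value lay below every D14 value, a to d included, but D14 g stood far above e and f, and the change of -2.13 ± 0.72 did not pass (adjusted p = 0.0617). Krt6b, Krt16 and Krt17 had log2 fold changes of -2.15, -1.92 and -1.26, none of which passed.

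Basal keratinocyte genes were lower against D14 e to g. Of 13 tested, 5 were called lower (38.5%, beside 10.1% of all genes) and 0 higher. The median was -1.44, but against D14 a to d it was 0.33. Itga6, the integrin that anchors basal cells to the basement membrane, was at 57.4, 48.9 and 79.8 RPKM at D14, 14.4, 14.7 and 12.5 RPKM at D19 and 13.9 to 33.0 in D14 a to d. Lamb3, a chain of the anchoring laminin, changed by -2.34, but by 0.16 against a to d. Krt5 and Krt14, the basal keratins, had -1.44 ± 0.50 and -1.85 ± 0.68, neither of which passed. Cd207, the langerin of epidermal Langerhans cells, was at 24.3, 17.8 and 8.81 RPKM and then 3.10, 3.53 and 1.41 RPKM, with a to d at 11.8 to 20.5, and was called lower (-2.65 ± 0.51).

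**Figure D2:**
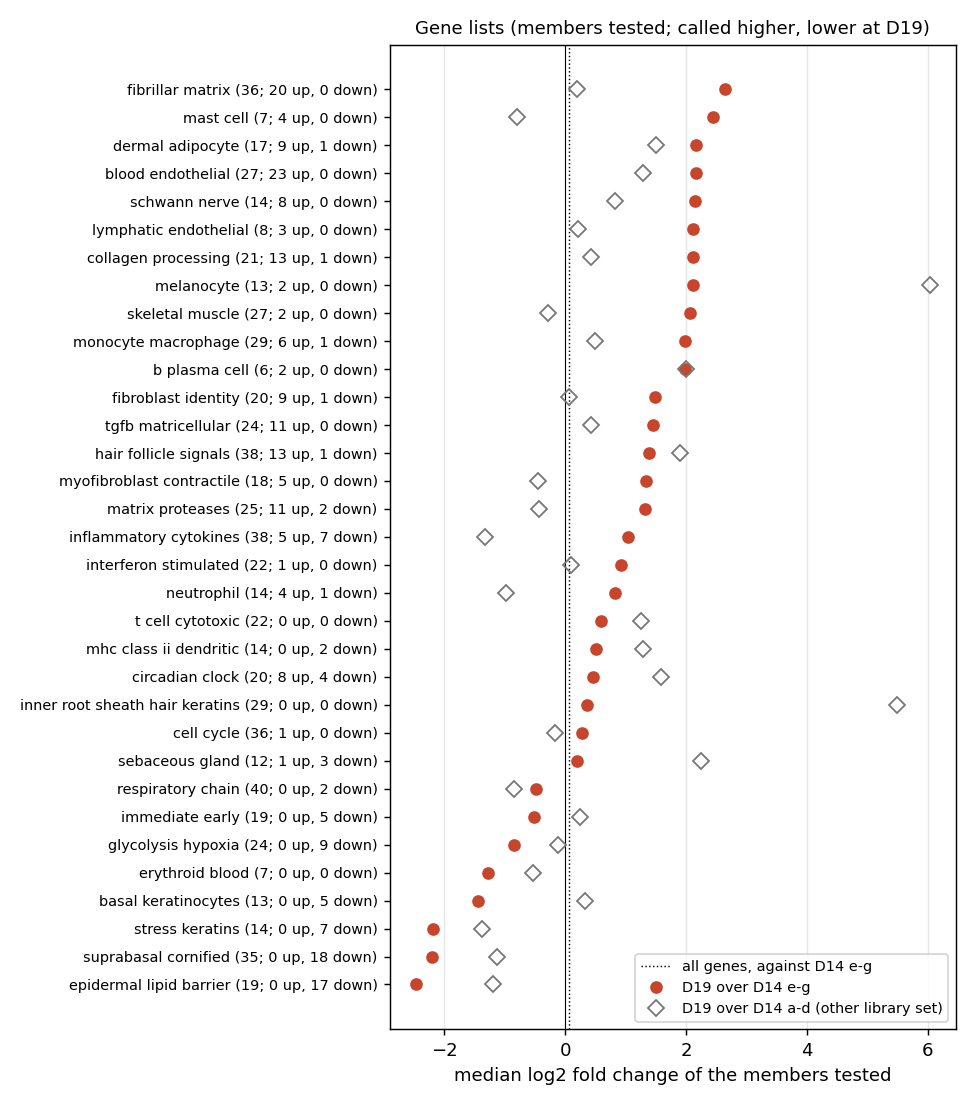
Median log2 fold change of each gene list at D19 over D14 e to g (red points) and over D14 a to d (grey diamonds), with members tested and called beside each name and the all-gene median of 0.07 as a dotted line. Stress keratin, cornified and lipid barrier lists lie below 0 against both D14 sets, while matrix, mast cell and contractile lists move toward or past 0 against a to d.

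Genes of the collagen matrix were higher at D19 than in D14 e to g. Of 36 fibrillar matrix genes tested, 20 were called higher (14.2% of all genes were), 0 lower, and all 36 were positive, with a median of 2.64. Col1a1 was at 518, 604 and 564 RPKM in D14 e, f and g and at 4340.0, 1024 and 10195 RPKM in D19 a, b and c. Every D19 wound lay above e to g, but D19 a and c far more than b, and the log2 fold change was 3.21 ± 0.86 (adjusted p = 0.0336). Col5a1, the nucleating chain of type V collagen, was at 42.9, 43.6 and 40.1 and then 334, 60.7 and 724 RPKM. Eln, encoding elastin, was at 7.12, 5.40 and 9.59 and then 176, 51.2 and 229.8 RPKM. Col3a1, the collagen of young granulation tissue, was at 826, 731 and 605 and then 4279, 645 and 8528 RPKM; D19 b lay within the D14 range and the gene did not pass (2.64 ± 0.91, adjusted p = 0.0657).

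The other D14 wounds did not share the low matrix level of e to g. In D14 a to d Col1a1 was at 1224, 1714, 4172 and 3771 RPKM, Col5a1 at 112, 128, 311 and 282 and Col3a1 at 5585, 4948, 7088 and 7455. All 3 overlapped D19. Postn, encoding periostin, was at 308, 244 and 254 RPKM in D14 e to g, 1298, 249.5 and 2751 at D19 and 3144, 5631, 7202 and 6656 in D14 a to d, where every value stood above D19. For 0 of the 20 matrix genes called higher did a to d lie wholly below D19, beside 32.1% of all genes called higher, and the median over the 36 genes was 0.20 against a to d, or -0.63 after a GC content correction chosen after seeing the data.

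Collagen-processing enzymes followed the matrix, with 13 of 21 called higher (61.9%, beside 14.2% of all genes) and 1 lower (4.76%, beside 10.1%). Their median was 2.11, or 0.42 against a to d. Adamts2, the procollagen N-proteinase, was at 7.65, 8.66 and 7.62 RPKM and then 70.6, 12.6 and 136 RPKM, and Pcolce, an enhancer of C-propeptide removal, at 30.1, 26.6 and 31.0 and then 178, 59.5 and 306. Leprel1, a collagen prolyl 3-hydroxylase, was the member called lower, at 17.3, 14.0 and 14.5 and then 5.03, 4.21 and 5.20 RPKM. Of 25 matrix proteases and inhibitors, 11 were higher (44.0%) and 2 lower (8.0%), beside the same 14.2% and 10.1%. Mmp2, a gelatinase of fibroblasts, was at 35.5, 31.9 and 32.2 and then 249.6, 43.3 and 402 RPKM, with a to d at 128 to 247. Serpinb2, the plasminogen activator inhibitor of keratinocytes and macrophages, was at 83.9, 88.1 and 132 and then 10.4, 29.2 and 7.70 RPKM, and a to d at 122 to 165 lay above D19 too. Mmp13 and Mmp3, collagenase and stromelysin, had -0.32 ± 0.60 and 1.32 ± 0.77 and did not pass.

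Contractile genes of myofibroblasts and vessel walls gave 5 of 18 called higher (27.8%, beside 14.2% of all genes), 0 lower and a median of 1.33. Myh11, the smooth muscle myosin heavy chain, was at 0.244, 0.352 and 0.591 RPKM at D14, 8.02, 5.83 and 8.86 RPKM at D19 and 1.60, 2.64, 1.98 and 2.70 in D14 a to d. All D19 values lay above all 7 D14 values (4.25 ± 0.39, adjusted p = 0.00352). Acta2, the actin that defines myofibroblasts, was at 30.8, 39.9 and 107 and then 118, 109 and 123 RPKM with 57.8, 125, 366 and 337 in a to d; it did not pass (0.98 ± 0.48, adjusted p = 0.15), and the list median was -0.45 against a to d. Among 24 genes of TGF-beta signalling and matricellular proteins, 11 were higher (45.8%, beside 14.2% of all genes) and 0 lower. Thbs4 and Wisp2 changed by 4.06 and 3.84, and Tnc, encoding tenascin, by 2.13 ± 0.84 without passing. In a to d Thbs4 at 5.32 to 65.9 RPKM and Wisp2 at 7.95 to 14.4 overlapped D19, at 6.21 to 109.7 and 4.16 to 40.2. The list median was 1.45, or 0.42 against a to d. Among 20 fibroblast identity genes, 9 were higher (45.0%) and 1 lower (5.0%), beside 14.2% and 10.1% of all genes. Pdgfra, the receptor that marks fibroblasts, was at 2.24, 2.38 and 2.57 and then 18.3, 5.65 and 43.6 RPKM, with a to d at 13.8 to 18.5.

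**Figure D3:**
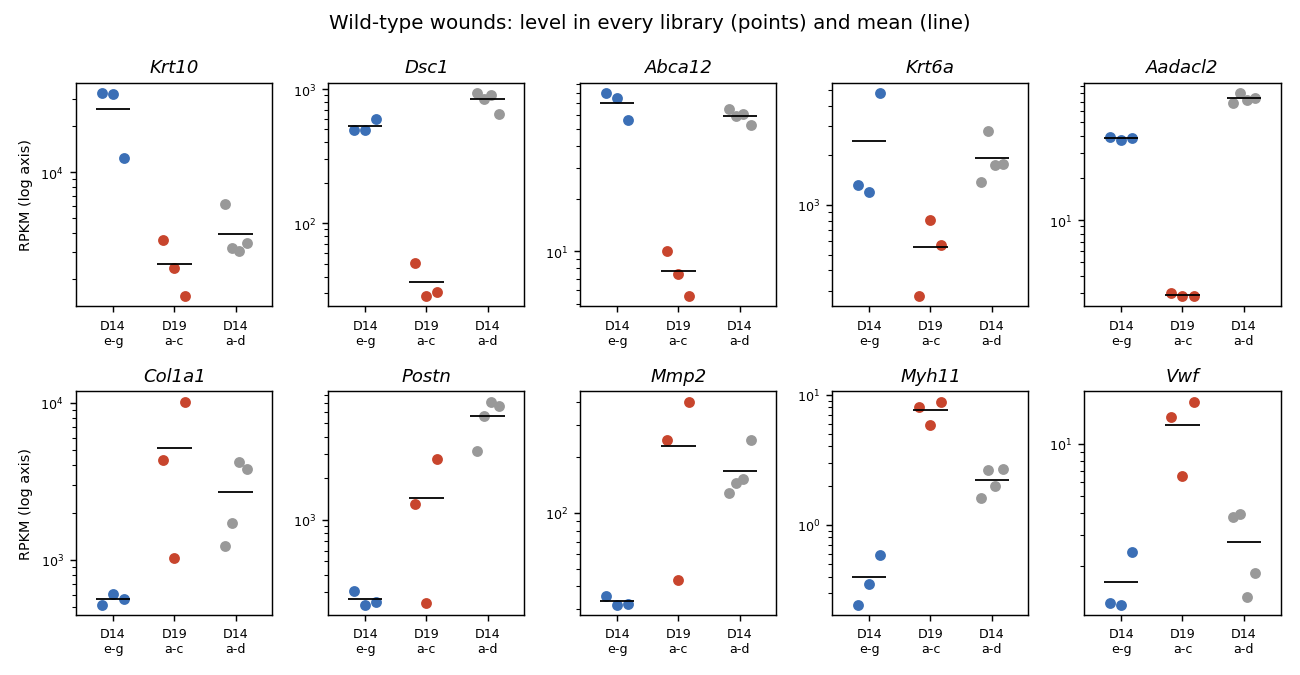
RPKM of 10 genes (log axes) in each library of D14 e to g (blue), D19 a to c (red) and D14 a to d (grey), with a line at each mean. Dsc1, Abca12, Krt6a and Aadacl2 are lowest in all 3 D19 wounds, whereas Col1a1 and Mmp2 in a to d overlap D19 and Postn in a to d lies above it.

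Genes of blood vessels were higher at D19. Of 27 blood endothelial genes tested, 23 were called higher (85.2%, beside 14.2% of all genes) and 0 lower, with a median of 2.16. Against a to d the median was 1.28, or 0.41 after the GC content correction chosen after seeing the data. Vwf, the clotting factor carrier stored by endothelium, was at 1.23, 1.20 and 2.38 RPKM at D14 and 14.2, 6.56 and 17.5 RPKM at D19 (2.99 ± 0.47), and a to d stood at 1.32 to 3.93. Pdgfrb, the receptor of pericytes, was at 2.59, 3.48 and 4.31 and then 25.5, 10.1 and 53.4 RPKM, with a to d at 7.90 to 19.4. In 14 of the 23 called genes a to d lay wholly below D19, beside 32.1% of all genes called higher; Vwf was among them and Pdgfrb was not. Of 8 lymphatic endothelial genes 3 were higher (37.5%), among them Flt4, the VEGF-C receptor, at 0.331, 0.606 and 0.925 and then 2.75, 1.13 and 6.44 RPKM. Its a to d range was 0 to 1.81, which overlapped D19.

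Fat cell genes were in part higher at D19 than in D14 e to g. Of 17 tested, 9 were higher (52.9%, beside 14.2% of all genes) and 1 lower (5.88%, beside 10.1%). The median was 2.16, or 1.51 against a to d. In 1 of the 9 did a to d lie wholly below D19, beside 32.1% of all genes called higher. The summed level of the list was not higher, at 510.6 to 710.4 RPKM in e to g, 408.1 to 763.8 at D19 and 1063.5 to 1654.6 in a to d. Adipoq, the hormone adiponectin, was at 0.693, 0.263 and 0.974 RPKM and then 5.43, 8.15 and 1.48 RPKM, and Plin1, the lipid droplet coat, at 0, 0 and 0.209 and then 3.75, 4.07 and 0.864. D14 a to d stood at 6.15, 9.55, 0.0646 and 0.111 and 0.821, 0, 0 and 0.0358, overlapping D19 for Adipoq. Cebpa, shared by fat cells and keratinocytes, was the member called lower, at 283, 284 and 229.8 and then 83.7, 75.0 and 54.7 RPKM, but a to d at 31.7 to 52.4 lay wholly below D19, the opposite direction. Schwann cell and nerve genes gave 8 of 14 higher (57.1%) and 0 lower, and a to d lay wholly below D19 in 1 of the 8. Scn7a, a sodium channel, was called higher, at 0.0919, 0.0708 and 0.0600 and then 2.11, 0.846 and 1.58 RPKM. Its a to d values of 0.0561 to 4.75 overlapped D19, with a log2 fold change of -0.036 against them. Skeletal muscle genes differed widely by wound: Acta1 was at 3.48, 1.65 and 280.4 and then 852, 87.2 and 149.8 RPKM with 1271, 2.56, 2.61 and 1.91 in a to d. In that list 2 of 27 members were called higher, a share of 7.41% that is below the 14.2% of all genes.

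Of 29 inner root sheath and hair keratin genes edgeR called 0, with 0 at an unadjusted p under 0.05 and 0 called by DESeq2. Krt71, of the inner root sheath, was at 90.1, 1476 and 333 RPKM at D14 and 960.1, 1036 and 54.6 RPKM at D19, and Krt25 at 54.8, 841 and 188 and then 689, 953 and 59.0. High and low wounds occurred on both days, and D14 a to d were lower at 2.93 to 26.8 and 1.41 to 19.2 RPKM. The signals that build follicles did differ, with 13 of 38 higher (34.2%, beside 14.2% of all genes) and 1 lower (2.63%, beside 10.1%). Their median was 1.38. Gli1, the read-out of hedgehog signalling, was at 0.834, 1.76 and 0.940 and then 8.81, 26.9 and 4.41 RPKM, Corin, of the dermal papilla, at 0.0955, 0.193 and 0.0255 and then 1.06, 4.68 and 0.246, with Gli1 at 0 to 0.722 in a to d and Corin listed at 0 in all 4. Wnt7b, an epithelial Wnt ligand, was the member called lower (-2.26 ± 0.38), at 25.0 to 39.1 and then 3.38 to 8.43 RPKM, but a to d at 1.71 to 6.08 overlapped D19 and the sign turned to 1.05 against them. Sebaceous gland genes gave 1 of 12 higher (8.33%) and 3 lower (25.0%), beside the same 14.2% and 10.1%. Lef1, a Wnt effector of the placode and papilla, was at 0.768, 10.1 and 2.46 and then 11.4, 41.1 and 3.41 RPKM and did not pass. Of 13 melanocyte list members 2 were called higher, a share of 15.4% that is near the 14.2% of all genes. Sox10, of melanocytes and nerve, was among them, at 0.414, 1.39 and 0.575 and then 3.32, 10.6 and 2.22 RPKM.

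Immune genes passed in part, and D19 b often stood apart from a and c. Of 29 monocyte and macrophage genes 6 were higher (20.7%, beside 14.2% of all genes) and 1 lower (3.45%, beside 10.1%). Positive values were found for 26, with a median of 1.99, or 0.48 against a to d. Marco, a scavenger receptor, was at 0.498, 0.311 and 0.141 RPKM at D14 and 49.03, 0.537 and 174 RPKM at D19, with D19 b near the D14 level and a to d at 0 to 9.50. Nos2, the inducible nitric oxide synthase, was at 0.462, 0.472 and 0.612 and then 3.38, 2.71 and 8.79 RPKM. Arg1, its counterpart in repair macrophages, was at 133, 142 and 539.7 and then 25.6, 48.1 and 131 RPKM, below a to d at 357 to 724, but did not pass (-1.99 ± 0.82). Ptprc, the pan-leukocyte CD45, had 1.34 ± 0.76 and Itgam, CD11b, 2.17 ± 0.74, neither passing. The neutrophil list gave 4 of 14 higher (28.6%) and 1 lower (7.14%). Fpr1, a formyl peptide receptor, was at 0.306, 0.245 and 1.15 and then 9.11, 3.48 and 25.3 RPKM, with a to d at 0.0577 to 19.4, which overlapped D19. Cxcr2, the chemokine receptor of neutrophils, was the member called lower, at 5.70, 8.79 and 7.44 and then 1.45, 3.97 and 2.76, with a to d at 6.74 to 20.9.

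Among 38 cytokines and chemokines 5 were higher (13.2%) and 7 lower (18.4%), beside 14.2% and 10.1% of all genes. Those that fell included epidermal alarm cytokines: Il1f8 and Il1f6, of the IL-36 group, were at 149.6, 164 and 118 and 254, 340.5 and 172 RPKM at D14 and at 14.4, 19.1 and 24.4 and 28.4, 31.8 and 73.8 RPKM at D19. Tslp, an epithelial cytokine of type 2 immunity, was at 18.9, 14.7 and 26.9 and then 3.42, 1.21 and 2.43, and a to d lay above D19 for all 3, at 259 to 528, 485 to 941 and 8.95 to 32.5. Cxcl12, a chemokine of stroma and endothelium, was at 2.99, 3.80 and 5.31 and then 24.0, 22.9 and 33.5 RPKM. Its a to d values of 12.7 to 29.0 overlapped D19, with a log2 fold change of 0.46 against them. Il1b was at 6.64, 5.85 and 108 and then 8.71, 167 and 93.1 RPKM, with 9.97, 64.1, 1844 and 1522 in a to d, so the wounds of each day spanned a wide range and it did not pass. The B and plasma cell list gave 2 of 6 higher (33.3%) and the interferon-stimulated list 1 of 22 higher (4.55%). In the MHC class II and dendritic cell list 2 of 14 were lower (14.3%), Cd207 and Epcam. There 9 of the 14 were positive, with a median of 0.51. T cell genes gave 0 of 22 called by edgeR, with 4 at an unadjusted p under 0.05 and 2 higher and 2 lower by DESeq2, with Cd3e at 14.9, 12.7 and 8.67 and then 5.66, 1.77 and 6.11 RPKM. Mast cell genes gave 4 of 7 higher (57.1%). Mcpt4, a mast cell chymase, was at 1.27, 2.23 and 2.63 and then 12.7, 3.88 and 16.9 RPKM, but a to d lay above D19 at 19.6 to 25.1. Cell cycle genes gave 1 of 36 called higher (2.78%, beside 14.2% of all genes), E2f1, at 4.75 to 5.09 and then 10.4 to 10.6 RPKM. Mki67, the proliferation antigen, was at 15.6, 10.4 and 10.2 and then 12.4, 38.1 and 15.02 RPKM.

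Genes of the circadian clock differed between the days, with Per1, Per2 and Dbp higher and Arntl, Clock and Rora lower at D19. Clock and Arntl (BMAL1) form the activator that drives Per genes and the output factor Dbp through E-boxes, and Per proteins repress it in turn, while Rora activates Arntl. Of 20 clock genes tested 8 were called higher and 4 lower. The windows below, the 250 bases before the RefSeq start of 4 of these genes on build GRCm38.p6, show the letters CACGTG (an E-box) and AGGTCA or its complement TGACCT (a half-site bound by ROR factors) in capitals.
Per1 (chr11:69098699-69098948, plus strand): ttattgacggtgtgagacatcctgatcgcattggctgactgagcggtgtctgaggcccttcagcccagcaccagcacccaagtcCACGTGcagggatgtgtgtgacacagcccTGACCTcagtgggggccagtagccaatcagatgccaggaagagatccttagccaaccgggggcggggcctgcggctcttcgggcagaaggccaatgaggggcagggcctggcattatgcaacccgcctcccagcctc
Bhlhe41 (chr6:145865421-145865670, minus strand): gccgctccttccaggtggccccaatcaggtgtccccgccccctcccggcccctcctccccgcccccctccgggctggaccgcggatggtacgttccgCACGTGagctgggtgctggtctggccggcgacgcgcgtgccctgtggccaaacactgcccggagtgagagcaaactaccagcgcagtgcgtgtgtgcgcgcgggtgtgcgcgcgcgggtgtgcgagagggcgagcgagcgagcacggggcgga
Clock (chr5:76303503-76303752, minus strand): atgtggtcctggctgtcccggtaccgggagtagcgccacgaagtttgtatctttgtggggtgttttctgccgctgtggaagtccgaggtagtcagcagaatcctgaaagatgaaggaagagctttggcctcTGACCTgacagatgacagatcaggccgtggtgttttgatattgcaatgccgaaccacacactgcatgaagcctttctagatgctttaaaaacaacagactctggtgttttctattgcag
Arntl (chr7:113207215-113207464, plus strand): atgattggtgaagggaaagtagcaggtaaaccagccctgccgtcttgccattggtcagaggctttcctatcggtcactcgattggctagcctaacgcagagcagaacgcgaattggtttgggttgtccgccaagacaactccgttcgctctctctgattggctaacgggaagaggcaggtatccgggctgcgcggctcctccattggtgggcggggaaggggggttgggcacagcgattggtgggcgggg
CACGTG was found on either strand in 6 of 21 windows of 16 clock genes and in 6.02% of all 32851 RefSeq windows of this length, and AGGTCA in 4 of 21 and in 14.0%. Per1 has 2 windows, Clock 3 and Arntl 2, and the windows of Per1 and Clock shown are the ones with a match; the others of these genes, both Arntl windows and the Dbp window held neither. A match is a description of the letters and not a bound site.

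Per1 was at 9.84, 9.61 and 7.17 RPKM in D14 e, f and g, 44.7, 35.8 and 49.8 RPKM at D19 and 3.01, 0.0819, 5.89 and 7.51 in D14 a to d. Per2 was at 0.216, 0.445 and 0.206, then 8.63, 3.86 and 8.89, with 2.88, 0.0131, 1.89 and 0.599 in a to d, and Dbp at 10.3, 11.7 and 4.63, then 66.8, 28.5 and 60.4, with 9.08, 1.14, 2.04 and 3.35. Every D19 wound stood above all 7 D14 wounds in these 3 genes, with log2 fold changes of 2.29 ± 0.20, 4.61 ± 0.51 and 2.55 ± 0.48. Bhlhe41, a repressor driven by the same activator, was at 1.42, 1.71 and 1.27 and then 10.9, 5.81 and 10.9 RPKM. Arntl was at 18.6, 16.9 and 16.4 RPKM, then 3.38, 4.97 and 4.08 RPKM, with 16.9, 13.2, 6.21 and 24.2 in a to d. Clock was at 13.7, 11.4 and 14.3, then 4.45, 3.58 and 5.38, with 30.1, 32.0, 28.9 and 26.1, and Rora at 56.7, 51.8 and 32.1, then 7.13, 8.40 and 5.97, with 44.9, 25.1, 30.8 and 36.3. All 7 D14 wounds lay above all D19 wounds for each, with log2 fold changes of -2.06 ± 0.19, -1.56 ± 0.19 and -2.71 ± 0.27 against e to g. In all 8 clock genes called higher a to d lay wholly below D19, beside 32.1% of all genes called higher, and in 3 of the 4 called lower they lay wholly above it, beside 43.5% of all genes called lower. The exception was Bhlhe40, a repressor related to Bhlhe41 that was nonetheless called lower (-1.07 ± 0.24), at 69.9, 76.7 and 114 and then 47.9, 36.0 and 40.1 RPKM, with a to d at 25.6 to 43.9. The hour at which wounds were collected is not given in the sources used here, and its part in these values was not tested.

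**Figure D4:**
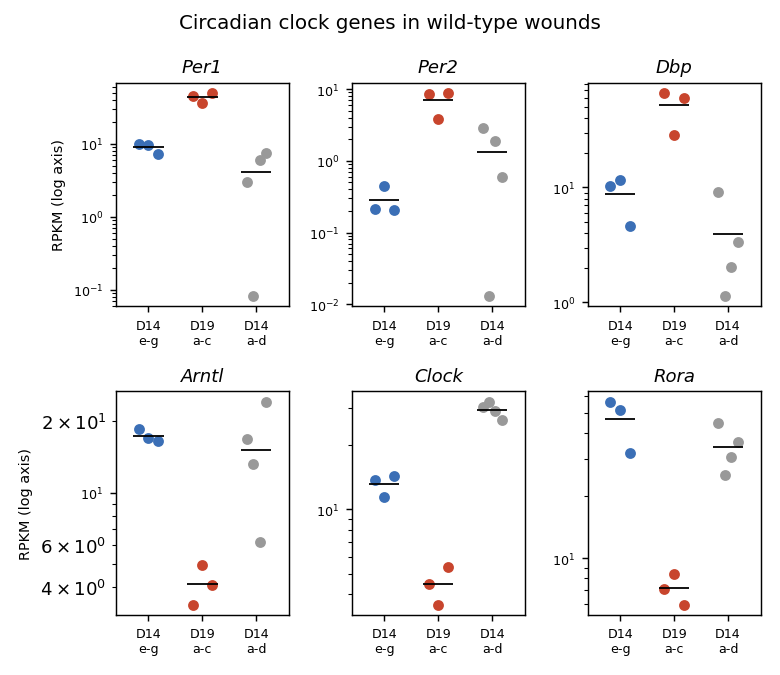
RPKM of 6 clock genes (log axes) in each library of D14 e to g (blue), D19 a to c (red) and D14 a to d (grey), with a line at each mean. Per1, Per2 and Dbp are highest and Arntl, Clock and Rora lowest in the 3 D19 wounds, against all 7 D14 wounds.

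Genes of glycolysis and acute stress were lower in part. Of 24 glycolysis and hypoxia genes 9 were lower (37.5%, beside 10.1% of all genes) and 0 higher, with a median of -0.86. Slc2a1, the glucose transporter GLUT1, was at 115, 83.8 and 228 RPKM at D14, 34.8, 34.6 and 40.3 RPKM at D19 and 31.5 to 52.5 in a to d, which overlapped D19. Tpi1, a glycolytic isomerase, was at 248, 215 and 358 and then 127, 84.3 and 115, with a to d at 227 to 295, above D19. In the respiratory chain 2 of 40 genes were called lower, Ndufa4 and Ndufb8. That share of 5.0% was below the 10.1% of all genes, though 35 of 40 were negative, with a median of -0.48. Of 19 immediate early and heat shock genes 5 were lower (26.3%, beside the same 10.1%) and 0 higher. Klf4, also a factor of the epidermal barrier, was at 444, 462 and 376 and then 109, 132 and 70.4 RPKM, and Hspa1b, an inducible chaperone, at 59.7, 52.4 and 51.4 and then 14.98, 16.6 and 8.32. Both overlapped a to d, at 61.0 to 166 and 11.2 to 25.0.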

How the data were processed

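Total RNA from punch biopsies was sequenced as stranded single-end libraries. The authors aligned reads with HISAT2 to mouse build NCBI37 (mm9) and counted them over RefSeq exons in SeqMonk; the versions are not given in the sources used here. The deposited values are raw counts per RefSeq row, and 0 columns that hold values were left without a sample. Of 29082 rows, the row with the largest total was kept for each of 22830 symbols; 30 rows without a symbol (0.0492% of counts) were left out, and 26 symbols are numbers. Groups came from the sample titles. Members and gene lists were chosen with earlier results of these data known.

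D19 a to c and D14 e to g were compared with edgeR 4.0.16 in R 4.3.3 (TMM, filterByExpr minimum count 10, robust quasi-likelihood test, Benjamini-Hochberg adjustment over 15059 genes). Genes were called where they differed at least 2-fold with an adjusted p below 0.05. Values are RPKM on the TMM scale, and SE is the error implied by the F statistic. Lists were described by counts and medians with no test. Named genes were the 8 calls per direction with the smallest p among groups that did not overlap and a higher mean of at least 1 RPKM, up to 4 calls per list and direction by size of change, 2 abundant members of lists with no call, and a fixed set of wound genes; a selection of these is described. GC content came from GENCODE vM1 transcripts (95.4% of genes tested), and promoter windows from RefSeq on GRCm38.p6. Alternatives were DESeq2 1.42.0, other scalings, filters, thresholds, libraries, a sex covariate and GC content. In data simulated for this comparison with 4-fold changes, edgeR recovered 55.8% of 199 changed genes among 14955, with 10 false calls. Replicate pairs differed by 56.5 to 477 times the sampling noise (chi-square per degree of freedom), so none was a library deposited again. Each library is taken as a separate animal; where that is not so, p-values measure only the spread between samples. The columns of other groups were not used here. Some members of the lists are not reported here.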

Additional observations from a re-analysis of the deposited data

Results flagged for a closer look

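In the D14 check libraries a to d, 1 wound stood far from the other 3 for 8 of the 96 genes described, by Dixon's criterion for 4 samples (a limit that chance exceeds in about 1 of 20 groups). The high wound was replicate a each time, with Acta1 at 1271 RPKM against 1.91 to 2.61 in the others, Eln at 92.4 RPKM against 20.2 to 32.4 in the others, Krt10 at 6217 RPKM against 3033 to 3436 in the others, Lef1 at 0.0582 RPKM against 0 in the others, Plin1 at 0.821 RPKM against 0 to 0.0358 in the others, Rnf11 at 195 RPKM against 141 to 144 in the others, Scn7a at 4.75 RPKM against 0.0561 to 0.825 in the others and Wnt7b at 6.08 RPKM against 1.71 to 2.45 in the others. Groups of 3 were not examined in this way. The genes include markers of muscle, nerve and fat cells.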

How the results depend on the processing

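Most counts depended on which libraries entered. The 2133 higher and 1521 lower genes became 3646 and 733 with library size alone, 227 and 645 with all 7 D14 wounds, 262 and 852 against D14 a to d with a GC content correction, and 0 and 0 with sex as a covariate, where 1876 and 1374 genes passed 2-fold at an unadjusted p under 0.05. With all 10 WT libraries in the fit 830 were higher, and at 3-fold 789 were lower. Leaving out 1 library gave 570 to 3217 higher and 919 to 1900 lower genes. DESeq2 (2906 and 1710) and the GC content corrections stayed within 1.5 times of the first counts. Against D14 a to d the counts were 1486 and 2140. The GC content and length corrections, and the same correction against a to d, were chosen after seeing the data. No paired analysis was possible because D14 e to g and D19 a to c share no replicate letter and come from different animals.

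Signs that reversed are given as log2 fold changes or list medians. Against D14 a to d they were Abca8a -0.35, Acta2 -0.91, Bhlhe40 0.31, Cd3e 1.67, Cdsn 0.20, Cebpa 0.72, Col3a1 -0.47, Il1b -3.24, Krt5 0.33, Lamb3 0.16, Lypd5 0.69, Mcpt4 -1.05, Mki67 -0.18, Mmp3 -1.26, Postn -1.97, Ptprc -0.23, Scn7a -0.036, Tnc -0.32, Wnt7b 1.05, Xist -0.33, basal keratinocytes list 0.33, myofibroblast contractile list -0.45, matrix proteases list -0.43, neutrophil list -0.98, inflammatory cytokines list -1.32, mast cell list -0.80, cell cycle list -0.17, skeletal muscle list -0.28 and immediate early list 0.25. With GC content corrected as well they were Acta1 -0.91, Acta2 -0.83, Bhlhe40 0.34, Cd3e 1.49, Col1a1 -0.84, Col3a1 -0.97, Col5a1 -0.43, E2f1 -0.35, Eln -0.19, Il1b -2.69, Mcpt4 -1.13, Mmp2 -0.40, Mmp3 -0.72, Pcolce -1.20, Postn -1.09, Slc22a17 -0.20, Tnc -0.80, Xist -0.33, fibrillar matrix list -0.63, collagen processing list -0.42, myofibroblast contractile list -0.47, matrix proteases list -0.68, matricellular list -0.0032, neutrophil list -1.15, monocyte macrophage list -0.16, inflammatory cytokines list -0.82, mast cell list -0.90, skeletal muscle list -0.88 and fibroblast identity list -0.34. With all 7 D14 wounds they were Acta2 -0.37, Il1b -2.49, Mcpt4 -0.34, Mmp3 -0.63, Postn -1.21, myofibroblast contractile list -0.069, matrix proteases list -0.042, neutrophil list -0.41, inflammatory cytokines list -0.95, mast cell list -0.35 and cell cycle list -0.017, and with sex as a covariate Il1b -2.24, Xist -0.024, sebaceous gland list -0.18, neutrophil list -0.22, inflammatory cytokines list -1.02 and cell cycle list -0.20. Leaving out 1 library gave Krt71 -0.42 to 1.68, Mmp13 -0.81 to 0.026, hair keratin list -0.60 to 1.87, sebaceous gland list -0.12 to 0.34, T cell list -0.29 to 1.09, cell cycle list -0.24 to 0.51, each of which changed sign under some omission. With the GC content correction the value was Krt71 -0.035. With GC content and length corrected the value was Krt71 -0.0055. With library size alone the value was Mmp13 0.036. The cause of these changes was not tested.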
